A study of Mus musculus with 16 samples.

Results

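The early response of mouse dendritic cells to Lactobacillus acidophilus NCFM was measured by setting 3 arrays of cells exposed to the bacterium for 4 h against 3 arrays of control cells taken at 4 h. The arrays were chosen by their titles, and they are 6 of the 16 in the series, which also covers 10 and 18 h. All 18193 genes with a probe set that names a single gene were compared. Cells exposed to NCFM and control cells alike were non-adherent immature dendritic cells harvested after 8 days from C57BL/6 bone marrow grown with GM-CSF at 15 ng/ml. They were then plated with GM-CSF at 10 ng/ml. NCFM, a strain of a lactic acid bacterium used as a probiotic, was added at a final 10 µg/ml, and the control cells are described only as control. The labels do not say whether replicates were separate animals or cultures, and the p-values therefore cover the scatter among these arrays alone, part of which may be technical. A change is given as log2 of NCFM over control with the standard error (SE) of the limma fit (n = 3 against 3), a gene was called at an adjusted p under 0.05 over all genes, and values per array are normalised intensities in the order of replicates 1, 2 and 3.

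Dendritic cells detect bacterial lipoproteins, cell walls and nucleic acids with Toll-like receptors on the cell surface and in endosomes. The receptors signal through adaptor proteins to NF-kB and to MAP kinases, which switch on cytokine and chemokine genes within hours, and to interferon regulatory factors, which switch on interferon beta. Secreted interferon beta then acts back on the cells and induces a set of antiviral genes through an interferon-stimulated response element (ISRE) in their promoters. Genes that end the response, such as inhibitors of NF-kB and mRNA-degrading proteins, are switched on by the same signals.

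Markers of dendritic and other cells were read first. Cd74, the invariant chain of MHC class II, had a mean intensity (from log2 values) of 22915 on NCFM arrays and 22391 on control arrays, and the class II chain H2-Aa had 17345 on NCFM arrays and 16768 on control arrays, where the median probe set of an array lay between 164 and 166. The summed intensity of 12 dendritic cell markers was 73068 to 83902 on NCFM arrays and 69998 to 74701 on control arrays, and none of the 12 was called (with the replicate number as a block, 1). Markers of other myeloid cells were measured as well. The sum of 11 macrophage markers was 38350 to 77719 on NCFM arrays and 40980 to 77517 on control arrays, with the lowest value of each group on replicate 1, and Fcgr1 was the 1 member called (3 were called without NCFM replicate 1, and 6 with the block). The sum of 10 neutrophil markers was 11584 to 43114 on NCFM arrays, lowest on replicate 3, and 32048 to 45476 on control arrays, with none called (1 without NCFM replicate 1, 2 with the block). None of the dendritic, macrophage and neutrophil markers lay below the array median on all 6 arrays. Over the 4 h arrays the median log2 intensity was 10.73 to 11.62 for the dendritic list and 11.44 to 12.77 for the macrophage list. These levels do not set dendritic cells apart from other myeloid cells. T and NK cell markers summed to 1598 to 1734 on NCFM arrays and 1536 to 1693 on control arrays over 9 genes, and Cd3g, Gzma and Gzmb lay below the array median on all 6 arrays, as did the B cell receptor genes Cd79a and Cd79b. The groups did not overlap in the sums of 7 B cell markers (3781 to 4696 on NCFM arrays, 3098 to 3599 on control arrays), 8 plasmacytoid dendritic cell markers (4659 to 7510 on NCFM arrays, 3932 to 4195 on control arrays) and 10 stromal and endothelial markers (2307 to 2381 on NCFM arrays, 1795 to 1958 on control arrays), of which Siglech, Col1a1, Col3a1 and Pecam1 lay below the median on all 6 arrays. The groups did not overlap on 36.5% of all single genes either, and the share for sums of lists was not determined. Of the 10 stromal and endothelial markers 6 lay below the array median on all 6 arrays. Among B cell markers 1 of 7 rose (Blnk) and 1 fell (Ighm). Of plasmacytoid markers 2 of 8 rose (Tcf4 and Bst2), and of stromal and endothelial markers 2 of 10 rose (Kdr and Cdh5). Over all genes 5.27% were called higher. Without NCFM replicate 2 neither plasmacytoid marker was called, and without NCFM replicate 3, control replicate 2 or control replicate 3 neither Kdr nor Cdh5 was. The part of such cells in the results below was not tested. In bulk samples, fewer cells of a type and less RNA per cell cannot be told apart.

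Array number 1 stood apart in both groups. Xist, expressed from the inactive X chromosome, had intensities of 369, 6463 and 1999 on NCFM arrays and 260, 7663 and 6905 on control arrays, and the Y-linked Eif2s3y had 1033, 72 and 73 on NCFM arrays and 1222, 63 and 68 on control arrays. Each number 1 array was thus low in Xist and high in Eif2s3y beside its partners, a sex difference between number 1 and numbers 2 and 3. Whether numbers 2 and 3 came from separate animals is not given by the labels. The array of NCFM replicate 3 had 253 of 10478 brighter genes (mean intensity above 200) at least 2-fold below both partners, where the other 5 arrays had 0 to 84. A call is described as held when it passed in each of the 6 fits that left out a single 4 h array. Of the called genes 1823 held, 575 of them higher and 1248 lower, and a gene named below as called held unless another remark stands beside it.

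**Figure D1:**
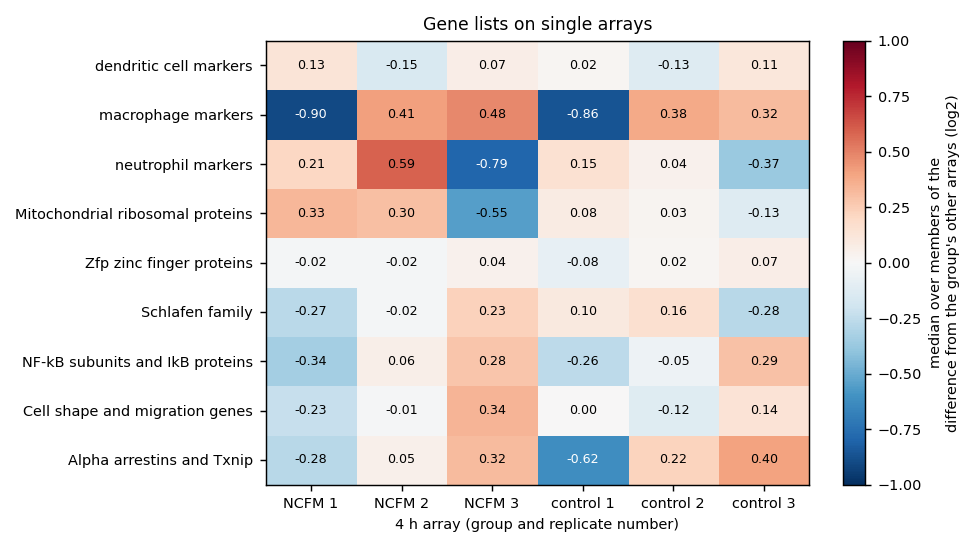
Each cell gives, for a gene list (rows) and a 4 h array (columns), the median over members of the log2 difference between that array and the mean of the other 2 arrays of its group. Macrophage markers lay at -0.90 on NCFM replicate 1 and -0.86 on control replicate 1, and neutrophil markers at -0.79 and mitochondrial ribosomal protein genes at -0.55 on NCFM replicate 3.

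Which genes NCFM changes within 4 h, and by how much, was the question of the comparison. Of all genes, 18.3% were called in either direction, 5.27% higher (959 genes) and 13.1% lower (2376). Rises were fewer and larger: 371 reached 2-fold (2.04% of genes), 49 of them 8-fold and 21 of them 16-fold. Falls were many and small: 2165 stayed under 2-fold, 211 reached it (1.16%), 12 reached 4-fold and none 8-fold. The median called rise was 0.78 and the median called fall -0.53, with a median SE over all genes of 0.09. On 36.5% of all genes the groups did not overlap, with NCFM arrays higher for 13.8% and lower for 22.7%.

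The direction of the small changes depended on scaling. After quantile normalization 58.1% of calls were lower, against 71.2% in the values as deposited. After centring on 18 hybridization spike-in probe sets, a setting chosen after the data were seen, the median change of all genes was 0.23, 4819 genes were called and 12.3% of them were lower. Calls lower in NCFM also lay mostly among brighter genes. Of the 4548 genes with the highest control level 332 were higher and 1021 lower, with a median change of -0.24, and of the 4549 genes with the lowest control level 135 were higher and 34 lower, with a median change of 0.04. The count of calls, 3335, was 2138 without control replicate 2 and 2207 without control replicate 3.

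**Figure D2:**
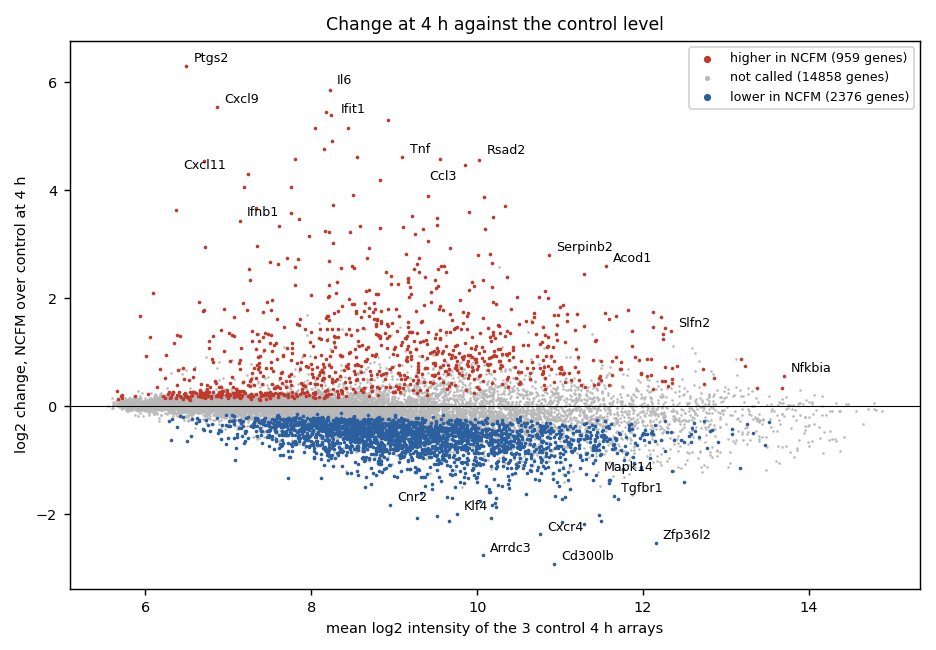
Each point is a gene, with the mean log2 intensity of the 3 control 4 h arrays on the x axis and the log2 change of NCFM over control on the y axis; red points are the 959 genes called higher, blue points the 2376 called lower, grey points the rest. Rises reach 6.31 (Ptgs2) and falls -2.91 (Cd300lb).

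Ptgs2 and Il6 had the largest rises. Ptgs2, the inducible cyclooxygenase of prostaglandin synthesis, had intensities of 4852, 7282 and 10225 on NCFM arrays and 80, 107 and 85 on control arrays, a change of 6.31 ± 0.28 (adjusted p = 1.37e-07). The control values lay below the median of each control 4 h array (165). Il6, an inducer of the acute phase response, had 15314, 17329 and 19695 on NCFM arrays and 183, 433 and 337 on control arrays (5.86 ± 0.32, adjusted p = 6.33e-07). Among the 40 largest rises, which spanned 9.80- to 79.2-fold, all 40 were also called higher at 10 h and at 18 h.

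Chemokine genes rose beside them. Ccl3, which attracts monocytes, had 19467, 21529 and 20069 on NCFM arrays and 960, 1094 and 750 on control arrays (4.46 ± 0.19, adjusted p = 1.37e-07). Cxcl2, which recruits neutrophils, had 13890, 16888 and 20011 on NCFM arrays and 715, 1643 and 1825 on control arrays (3.70 ± 0.46, adjusted p = 0.000204). The ligands of Cxcr3, which draw activated T cells, rose as well. Cxcl11 had 2343, 3574 and 3129 on NCFM arrays and 150, 149 and 153 on control arrays (4.30 ± 0.17, adjusted p = 6.79e-08). The other probe set of Cxcl11 changed by 0.77. Cxcl5 reached 487, 1338 and 1702 on NCFM arrays against 76, 86 and 87 on control arrays (3.64 ± 0.49, adjusted p = 0.00032), with NCFM replicate 1 well below its partners. Ccl12, a monocyte chemoattractant, was highest on NCFM replicate 2, with 1805, 3553 and 1327 on NCFM arrays and 182, 185 and 124 on control arrays (3.66 ± 0.28, adjusted p = 7.57e-06).

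Interferon beta and the genes that respond to it were already raised. Ifnb1 had 1396, 1690 and 1484 on NCFM arrays and 142, 147 and 134 on control arrays (3.43 ± 0.23, adjusted p = 2.16e-06), so that the 3 arrays of each group lay close together and far from the other group. Rsad2, an antiviral enzyme that makes a chain-terminating nucleotide, had 22833, 24874 and 26228 on NCFM arrays and 618, 1529 and 1194 on control arrays (4.56 ± 0.66, adjusted p = 0.000561). Usp18, a protease that removes Isg15 and restrains interferon signalling, had 11680, 10028 and 13180 on NCFM arrays and 966, 943 and 970 on control arrays (3.59 ± 0.23, adjusted p = 1.81e-06). Irf7, a factor that amplifies interferon genes, rose by 3.34 ± 0.31 (adjusted p = 2.33e-05), and Ifih1, a sensor of double-stranded RNA, by 3.37 ± 0.29 (adjusted p = 1.46e-05).

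Promoters of these genes were read for the ISRE, here GAAA followed after any 2 bases by a further GAAA, searched on both strands in 300 bases, 250 before and 50 after each start (RefSeq, GRCm38.p6). It stood in 3.44% of the 32851 promoters of the RefSeq set and, counted by gene, in 3.64% of the 14368 measured genes with a promoter there. Of the 371 rises of at least 2-fold, 287 had a promoter in the table and 51 of these (17.8%) held the ISRE, as did 7 of 172 falls of that size (4.07%). A match is only a description of these letters. The 4 largest rises that held it are shown as examples, over the 250 bases before the start, 5′ to 3′ along the gene, with ISRE matches in capitals and, in Cxcl10, also matches to the kB consensus, the binding sequence of NF-kB.
Ifit1 promoter (chr19:34640639-34640888, plus strand): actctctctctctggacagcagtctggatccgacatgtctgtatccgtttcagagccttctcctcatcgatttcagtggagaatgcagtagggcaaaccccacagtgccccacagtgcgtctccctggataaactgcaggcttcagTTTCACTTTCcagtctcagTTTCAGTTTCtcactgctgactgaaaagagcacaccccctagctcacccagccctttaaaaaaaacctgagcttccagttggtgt
Cxcl10 promoter (chr5:92348890-92349139, minus strand): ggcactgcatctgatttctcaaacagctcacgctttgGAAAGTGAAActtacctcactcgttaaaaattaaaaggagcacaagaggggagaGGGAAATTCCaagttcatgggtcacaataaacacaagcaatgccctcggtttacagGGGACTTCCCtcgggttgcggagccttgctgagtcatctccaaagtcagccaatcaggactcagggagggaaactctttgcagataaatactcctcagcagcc
Ifit1bl1 promoter (chr19:34601969-34602218, minus strand): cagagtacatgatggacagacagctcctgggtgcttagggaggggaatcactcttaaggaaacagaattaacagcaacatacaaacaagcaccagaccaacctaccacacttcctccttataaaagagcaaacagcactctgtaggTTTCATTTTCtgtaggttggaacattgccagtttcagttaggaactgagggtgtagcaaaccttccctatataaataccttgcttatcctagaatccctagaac
Ifit3 promoter (chr19:34583279-34583528, plus strand): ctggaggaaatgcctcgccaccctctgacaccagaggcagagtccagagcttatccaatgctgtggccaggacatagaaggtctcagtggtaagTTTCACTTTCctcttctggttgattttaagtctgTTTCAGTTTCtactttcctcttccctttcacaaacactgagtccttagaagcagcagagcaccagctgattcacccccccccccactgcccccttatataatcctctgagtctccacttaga
Ifit1 and Ifit3, which bind viral RNA or the proteins that do, each held a pair of reverse-strand ISRE matches. Ifit3 had 7343, 6970 and 9117 on NCFM arrays and 185, 382 and 324 on control arrays (4.77 ± 0.58, adjusted p = 0.00018). Ifit1bl1, their neighbour, had 9117, 8111 and 11202 on NCFM arrays and 156, 328 and 356 on control arrays (5.16 ± 0.51, adjusted p = 4.17e-05), and 1 match in the promoter shown. On all 3 genes the lowest control value was that of replicate 1. Cxcl10 held 1 ISRE match 213 to 204 bases before the start and kB matches at 159 to 150 and 103 to 94 bases before it.

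Some rises lay beside each other in the genome. In 5 runs of at least 3 neighbouring measured genes every gene rose at least 2-fold, and these runs held 25 of the 368 such rises with a position in the annotation (6.79%). How many runs chance would give was not tested. On chromosome 19 the run was Ifit2, Ifit3, Ifit1bl1, Ifit1bl2 and Ifit1 (1.66 to 5.44). On chromosome 11 it was 8 Schlafen genes, Slfn5, Slfn9, Slfn8, Slfn10-ps, Slfn2, Slfn1, Slfn4 and Slfn3 (1.31 to 3.58), and on chromosome 1 it was Aim2, a sensor of cytosolic DNA, with its relatives Ifi213, Ifi209, Ifi207, Ifi204 and Mndal (1.31 to 2.95). On chromosome 16 it was Parp14, Dtx3l and Parp9 (1.73 to 2.92), and on chromosome 2 Il1a, Il1b and the antisense gene Il1bos (1.79 to 4.19). Probe sets of near-identical neighbours, and of genes that overlap such as Il1b and Il1bos, can share target sequence, so the separate values of such members are uncertain.

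The kB consensus stood in 4.51% of all promoters and, counted by gene, in 6.08% of measured genes, in 31 of 287 rises of at least 2-fold (10.8%) and in 11 of 172 falls (6.4%). The palindromic cyclic AMP response element (CRE), written TGACGTCA, stood in 1.79% of all promoters and, counted by gene, in 2.94% of measured genes and in 9 of the 287 rises (3.14%), a share close to that of measured genes. Beside Cxcl10, the largest rises with a kB match were Il6, Oasl1 and Cxcl2, and 1 of the 40 largest rises, Ch25h, held the CRE; capitals mark these matches, and in Cxcl2 a pair of overlapping kB matches.
Il6 promoter (chr5:30012864-30013113, plus strand): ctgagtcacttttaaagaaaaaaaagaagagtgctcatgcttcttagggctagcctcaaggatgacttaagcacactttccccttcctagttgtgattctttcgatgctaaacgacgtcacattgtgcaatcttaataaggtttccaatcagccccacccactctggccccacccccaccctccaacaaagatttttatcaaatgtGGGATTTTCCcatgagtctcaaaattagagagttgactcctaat
Oasl1 promoter (chr5:114922990-114923239, plus strand): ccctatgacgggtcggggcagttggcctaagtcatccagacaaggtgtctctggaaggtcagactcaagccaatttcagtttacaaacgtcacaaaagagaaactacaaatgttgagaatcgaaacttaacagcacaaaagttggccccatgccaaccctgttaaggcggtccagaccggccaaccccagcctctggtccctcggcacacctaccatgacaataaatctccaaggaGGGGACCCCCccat
Cxcl2 promoter (chr5:90903649-90903898, plus strand): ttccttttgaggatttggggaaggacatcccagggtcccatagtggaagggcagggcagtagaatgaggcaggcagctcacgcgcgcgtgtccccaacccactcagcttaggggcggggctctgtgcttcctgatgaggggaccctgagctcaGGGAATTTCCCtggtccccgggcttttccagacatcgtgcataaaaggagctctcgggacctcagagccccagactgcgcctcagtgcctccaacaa
Ch25h promoter (chr19:34475149-34475398, minus strand): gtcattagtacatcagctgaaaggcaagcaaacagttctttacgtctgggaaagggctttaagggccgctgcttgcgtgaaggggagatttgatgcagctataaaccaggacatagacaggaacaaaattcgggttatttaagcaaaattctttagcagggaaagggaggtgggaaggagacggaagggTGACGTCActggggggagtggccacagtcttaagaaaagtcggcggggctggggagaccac
Ch25h, which makes 25-hydroxycholesterol, had 4309, 5777 and 6103 on NCFM arrays and 256, 185 and 233 on control arrays (4.58 ± 0.29, adjusted p = 1.81e-06). Oasl1, a relative of the antiviral oligoadenylate synthetases, had 3489, 3946 and 4891 on NCFM arrays and 305, 318 and 295 on control arrays (3.73 ± 0.23, adjusted p = 1.48e-06).

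Of the genes that were bright in control cells (control mean above 1000), 90 rose at least 2-fold and 114 fell at least 2-fold. The number of genes above this level is not given here, so these are not shares. The balance depended on the level. Of the 4549 genes with the lowest control level 21 rose and 0 fell at least 2-fold, and of the 4548 with the highest 146 and 156. Acod1, which makes the metabolite itaconate, had 15596, 17580 and 22014 on NCFM arrays and 2246, 3420 and 3504 on control arrays (2.60 ± 0.34, adjusted p = 0.000251). Ptx3, a soluble pattern recognition protein, rose by 3.50 ± 0.27 (adjusted p = 8.10e-06), and Serpinb2, the plasminogen activator inhibitor 2, by 2.81 ± 0.48 (adjusted p = 0.00163). The other probe set of Ptx3 changed by 0.35. In 10 genes every control array lay below its array median and every NCFM array above its upper quartile: Ptgs2, Cxcl9, Htra4, Cxcl11, Cxcl5, Ifnb1, Ifi213, Gm11772, Rilpl1 and Ifit1bl2. Htra4, a secreted serine protease, had 1182, 2612 and 4537 on NCFM arrays and 101, 101 and 111 on control arrays (4.53 ± 0.36, adjusted p = 8.31e-06). The converse held for Cnr2 alone, the cannabinoid receptor of immune cells, at 162, 133 and 124 on NCFM arrays and 457, 487 and 536 on control arrays (-1.83 ± 0.14, adjusted p = 5.79e-06).

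Cd300lb and Arrdc3 had the largest falls. Cd300lb, an activating receptor of myeloid cells, had intensities of 243, 232 and 301 on NCFM arrays and 1211, 2255 and 2662 on control arrays (-2.91 ± 0.34, adjusted p = 0.000119). Arrdc3, an arrestin-like protein that acts in receptor turnover, had 130, 161 and 190 on NCFM arrays and 494, 1639 and 1530 on control arrays (-2.76 ± 0.58, adjusted p = 0.00617). In these genes control replicate 1 was the lowest control, yet above every NCFM array. It was also the lowest control for other large falls, such as Zfp36l2, Cxcr4, P2ry6, Ptger2, Lpar6 and Tgfbr1, though not for Klf4 and Fam43a. For Lpar6 the difference was -1.16 between the number 1 arrays, against -2.57 for number 2 and -2.33 for number 3. The promoters shown of Cd300lb and Arrdc3 held none of the ISRE, kB and CRE letters searched for. They stand here beside those of the rises as the largest falls with a promoter in the table.
Cd300lb promoter (chr11:114934372-114934621, minus strand): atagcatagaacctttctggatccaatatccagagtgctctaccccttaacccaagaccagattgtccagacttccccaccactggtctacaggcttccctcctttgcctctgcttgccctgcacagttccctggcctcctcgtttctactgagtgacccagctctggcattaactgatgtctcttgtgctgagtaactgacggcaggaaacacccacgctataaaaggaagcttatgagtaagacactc
Arrdc3 promoter (chr13:80883134-80883383, plus strand): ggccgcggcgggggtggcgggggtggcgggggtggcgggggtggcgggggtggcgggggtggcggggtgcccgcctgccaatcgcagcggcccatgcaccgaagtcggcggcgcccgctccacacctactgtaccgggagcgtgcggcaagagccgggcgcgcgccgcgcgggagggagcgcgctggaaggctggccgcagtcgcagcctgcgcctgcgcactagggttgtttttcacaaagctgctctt
Of the 30 largest falls, which spanned 2.99- to 7.54-fold, 18 were also called lower at 10 and 18 h and 6 at neither time.

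Receptors were among these falls, and some are given here as single genes. Of listed purine receptor genes 13.3% rose and 6.67% fell, and of prostanoid, leukotriene and related receptors 9.52% rose and 19% fell. Over all genes 5.27% rose and 13.1% fell. P2ry6, a receptor for UDP released by damaged cells, had 769, 566 and 666 on NCFM arrays and 2464, 3214 and 3027 on control arrays (-2.12 ± 0.32, adjusted p = 0.000684). Ptger2, a receptor for prostaglandin E2, had 168, 187 and 204 on NCFM arrays and 436, 1116 and 1078 on control arrays (-2.12 ± 0.38, adjusted p = 0.00231). Lpar6, a lysophosphatidic acid receptor, fell by 2.02 ± 0.32 on the log2 scale (adjusted p = 0.001). The chemokine receptor Cxcr4 had 351, 295 and 362 on NCFM arrays and 1212, 1687 and 2556 on control arrays (-2.37 ± 0.38, adjusted p = 0.00106), without overlap. Tgfbr1, a signalling receptor for TGF-beta, had 958, 896 and 1210 on NCFM arrays and 2656, 3149 and 3915 on control arrays (-1.66 ± 0.17, adjusted p = 6.20e-05). The 2 other probe sets of Tgfbr1 changed by -0.27 and -0.03.

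Inside the cell, Zfp36l2, which binds AU-rich elements and promotes mRNA decay, had 749, 702 and 929 on NCFM arrays and 3412, 4667 and 5885 on control arrays (-2.53 ± 0.19, adjusted p = 6.29e-06). Bmf, a pro-apoptotic member of the Bcl2 family, fell by 1.86 ± 0.17 on the log2 scale (adjusted p = 2.00e-05), Tsc22d3, a glucocorticoid-induced repressor, by 1.75 ± 0.29 (adjusted p = 0.00144), and Lpin1, a phosphatidate phosphatase, by 1.69 ± 0.16 (adjusted p = 3.34e-05). These values are of the brightest probe sets. Other probe sets changed by -0.30 to -0.13 for Zfp36l2, -0.15 to 0.21 for Bmf, -1.35 to 0.17 for Tsc22d3 and -1.75 for Lpin1. The calls of 3 of the 30 largest falls did not hold. Glul, glutamine synthetase, had 721, 986 and 354 on NCFM arrays and 1448, 2394 and 2584 on control arrays (-1.72 ± 0.48, adjusted p = 0.0275), and its adjusted p was 0.106 without NCFM replicate 3, the lowest array; it also missed the threshold without control replicate 2 or 3. Dhrs3, a retinal reductase, had an adjusted p of 0.0173 with all arrays and 0.0768 without control replicate 2, and missed the threshold also without NCFM replicate 1 or control replicate 3. Smim4 had an adjusted p of 0.147 without control replicate 2, and missed the threshold also without NCFM replicate 3, control replicate 1 or control replicate 3.

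**Figure D3:**
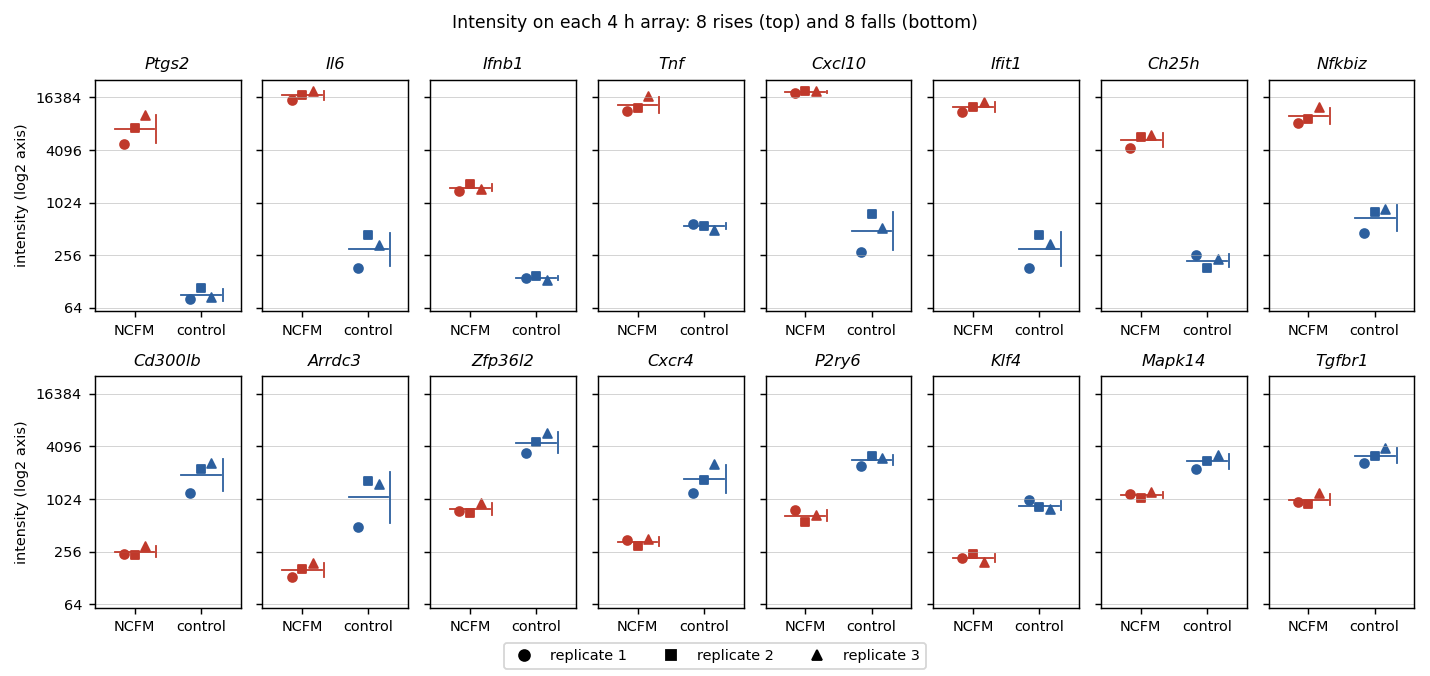
Intensity on a log2 axis on each of the 3 NCFM arrays (red, left) and 3 control arrays (blue, right) for 8 genes that rose (top) and 8 that fell (bottom); marker shape gives the replicate number, horizontal lines the mean of the log2 values and vertical lines the SD (n = 3). The groups do not overlap for any of these genes, and control replicate 1 is the lowest control for every fall shown except Klf4.

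Gene lists were counted against the 5.27% of all genes called higher and the 13.1% called lower. Lists and members were chosen with earlier results of these data known, so the shares below describe these lists and do not test them. Of 16 Toll-like receptors and co-receptors 1 rose and 1 fell. Tlr3, the endosomal receptor for double-stranded RNA, had 568, 778 and 849 on NCFM arrays and 169, 184 and 202 on control arrays (1.97 ± 0.38, adjusted p = 0.00363). Tlr4, the receptor for lipopolysaccharide, fell by 0.67 ± 0.19 (adjusted p = 0.0267), a call that did not hold (adjusted p = 0.0892 without NCFM replicate 1, and above the threshold also without NCFM replicate 2, control replicate 1 or control replicate 2). Tlr2, the receptor for bacterial lipoproteins, changed by 0.69 and passed under the replicate block (adjusted p = 0.031) but not without it, and 7 members passed under the block. The count was 4 without NCFM replicate 1, and 1 without NCFM replicate 2, control replicate 1 or control replicate 2. Of 16 adaptors and kinases below the receptors 5 rose and 1 fell (10 called with the block). Myd88, the adaptor shared by most of the receptors, had 3887, 4228 and 5447 on NCFM arrays and 2047, 1732 and 1779 on control arrays (1.28 ± 0.12, adjusted p = 3.79e-05), and Map3k8, the kinase that links NF-kB signalling to ERK, rose by 1.68 ± 0.23 (adjusted p = 0.000411).

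Most NF-kB genes rose. Of 10 subunits and inhibitors 8 rose and none fell, 6 of them in calls that held, with a list median of 0.74 against -0.01 over all genes. Nfkbiz, a nuclear IkB protein needed for a set of secondary genes, had 8426, 9368 and 12914 on NCFM arrays and 456, 803 and 863 on control arrays (3.88 ± 0.31, adjusted p = 9.02e-06). Rel, a subunit, rose by 1.61 ± 0.35 (adjusted p = 0.00696) and Nfkbie, an inhibitor, by 1.35 ± 0.16 (adjusted p = 0.000156). Nfkbia, the inhibitor that ends NF-kB activity, had 20722, 19646 and 18588 on NCFM arrays and 12729, 13421 and 13620 on control arrays, and rose by 0.57 ± 0.09. The call of Rela was lost without NCFM replicate 3 (adjusted p = 0.0869), as well as without NCFM replicate 2, control replicate 1 or control replicate 2, and that of Nfkbid without NCFM replicate 3 (0.0519).

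The brakes on the response were split. Of 21 genes of ubiquitin editing and mRNA decay 7 rose and 2 fell, with 6 rises and both falls held. Tnfaip3, the ubiquitin-editing enzyme A20, had 5222, 6790 and 9668 on NCFM arrays and 1404, 1750 and 2077 on control arrays (2.02 ± 0.24, adjusted p = 0.000164). The endoribonuclease genes Zc3h12a, which encodes regnase-1, and Zc3h12c rose by 1.34 ± 0.22 and 1.99 ± 0.21. Against these, Zfp36l2 and Peli2, a ubiquitin ligase of the Toll pathway, fell, and the relative Peli1 rose by 1.80 ± 0.22. Of 15 dual specificity phosphatases, which inactivate MAP kinases, 5 rose and 4 fell (4 and 3 held). Dusp16 rose by 1.48 ± 0.21 and Dusp2 by 1.19 ± 0.13, and Dusp3 fell by 0.83 ± 0.15. Of 18 MAP kinase genes 2 rose and 4 fell, and 3 were called without control replicate 3. Mapk14, the p38 alpha kinase, fell on its brightest probe set, with 1170, 1056 and 1234 on NCFM arrays and 2275, 2816 and 3312 on control arrays (-1.27 ± 0.15, adjusted p = 0.000147), while Mapkapk2, its substrate kinase, rose by 0.95 ± 0.22 (adjusted p = 0.01). The 5 other probe sets of Mapk14 changed by -0.43 to 0.16.

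Transcription factor genes moved both ways. Of 25 myeloid and dendritic lineage factors 7 rose and 1 fell (3 and 1 held, and 5 were called without control replicate 2). Mxd1, an antagonist of Myc, had 2849, 4314 and 4557 on NCFM arrays and 581, 558 and 725 on control arrays (2.63 ± 0.24, adjusted p = 2.00e-05), Batf2 rose by 2.10 ± 0.20, and Id3, an inhibitor of E proteins, fell by 1.54 ± 0.19. Of 18 C/EBP, Klf and Maf factors 3 rose and 6 fell (3 and 3 held). Klf4 had 219, 242 and 195 on NCFM arrays and 995, 822 and 789 on control arrays (-1.99 ± 0.29, adjusted p = 0.000543), and Cebpa, the factor of granulocyte and monocyte commitment, 365, 315 and 303 on NCFM arrays and 964, 1083 and 1485 on control arrays (-1.82 ± 0.35, adjusted p = 0.00325). The small Maf genes Maff and Mafk rose by 1.28 ± 0.25 and 1.20 ± 0.14. Of 14 AP-1 and Egr genes 5 rose, led by Atf3 (1.50 ± 0.27) and Egr1 (1.48 ± 0.31), and 3 were called without NCFM replicate 2 or any single control array. Of 17 nuclear receptors 2 rose and 3 fell, and the 3 falls held, those of Nr2c2 (-1.14 ± 0.19), Rxrb (-0.74 ± 0.15) and Pparg (-0.52 ± 0.11); 3 members were called without NCFM replicate 3.

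Among cytokine genes, 7 of 13 ligands of the Tnf superfamily rose and 1 fell. The rises of Tnf, Tnfsf10, Tnfsf9 and Cd70 held, and those of the less changed members did not: 4 were called without NCFM replicate 1 or control replicate 2, and 5 without NCFM replicate 2 or control replicate 3. Tnfsf10, which encodes the death ligand TRAIL, had 1053, 1318 and 1490 on NCFM arrays and 152, 171 and 165 on control arrays (2.97 ± 0.27, adjusted p = 2.36e-05). Tnfsf9, a co-stimulatory ligand for T cells, had 2326, 3382 and 3443 on NCFM arrays and 604, 609 and 518 on control arrays (2.38 ± 0.14, adjusted p = 1.48e-06). Cd70, the ligand of Cd27, had 749, 666 and 321 on NCFM arrays and 151, 136 and 148 on control arrays (1.91 ± 0.43, adjusted p = 0.00953), lowest on NCFM replicate 3. Of 4 subunits of the interleukin 12 family 3 rose. Il23a, the subunit specific to interleukin 23, had 267, 450 and 363 on NCFM arrays and 108, 107 and 97 on control arrays (1.76 ± 0.22, adjusted p = 0.000182), and Il12a, which pairs with Il12b, rose by 1.31 ± 0.18 (adjusted p = 0.00048). Of 14 genes of the interleukin 1 and 18 system 5 rose and 2 fell. Il1a had 6949, 8140 and 10026 on NCFM arrays and 395, 503 and 472 on control arrays (4.19 ± 0.34, adjusted p = 1.08e-05), the receptor antagonist Il1rn rose by 1.66 ± 0.20 (adjusted p = 0.000169), and Il1rl2, the receptor for interleukin 36, fell by 0.92 ± 0.09 (adjusted p = 4.60e-05).

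Some receptors for cytokines and chemokines were called higher and others lower. For chemokine receptors neither share was above that of all genes (5.27% higher, 13.1% lower). For cytokine and interferon receptors both shares were somewhat above it. These differences from all genes were not tested, so the counts do not set either list apart. Of 23 cytokine and interferon receptors 2 rose and 4 fell (1 and 3 held, 11 called with the block). Il15ra, which presents interleukin 15 to neighbouring cells, had 1112, 1443 and 1579 on NCFM arrays and 311, 362 and 436 on control arrays (1.90 ± 0.21, adjusted p = 9.23e-05). Tgfbr2, the partner of Tgfbr1, fell by 0.89 ± 0.21 (adjusted p = 0.0105), and Il6st, the signalling chain for interleukin 6, by 0.84 ± 0.18 (adjusted p = 0.00772). Other probe sets changed by -0.02 to -0.00 for Tgfbr2 and by -0.76 to -0.00 for Il6st. Of 19 chemokine receptors 1 rose and 2 fell. Ccrl2, which binds chemerin, had 3265, 5917 and 8463 on NCFM arrays and 444, 627 and 601 on control arrays (3.31 ± 0.34, adjusted p = 4.97e-05). Ccr7, which guides dendritic cells to lymph nodes, had a mean of 5296 on NCFM arrays and 4361 on control arrays, and its change of 0.28 was not called. Of 15 purine receptor genes P2ry14 (1.57 ± 0.14) and P2ry13 (0.93 ± 0.14) rose and P2ry6 fell (7 called with the block). Of 21 prostanoid, leukotriene and related receptors 2 rose and 4 fell, of which the falls of Ptger2, Lpar6 and Ptger3 held, and 3 were called without NCFM replicate 3 or control replicate 1.

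Ligands that act on T cells mostly rose where they changed. Of 22 co-stimulatory and inhibitory ligands 9 rose and 1 fell (8 and 1 held), with a list median of 0.74. Cd274, which encodes the inhibitory ligand PD-L1, had 5376, 7800 and 9676 on NCFM arrays and 1667, 1850 and 2074 on control arrays (2.00 ± 0.25, adjusted p = 0.00022). Cd86, a co-stimulatory ligand of Cd28, had 2072, 1961 and 2386 on NCFM arrays and 814, 787 and 856 on control arrays (1.38 ± 0.21, adjusted p = 0.000772). Cd200, an inhibitory ligand for myeloid cells, rose by 1.76 ± 0.19, and Pvr, a ligand of the receptors Cd226 and Tigit, by 1.32 ± 0.15. Vsir, an inhibitory ligand known as VISTA, was the member that fell, with 372, 571 and 498 on NCFM arrays and 1511, 2239 and 2654 on control arrays (-2.14 ± 0.38, adjusted p = 0.0023). Of 21 receptors of the Tnf superfamily 3 rose, 2 of them in calls that held (8 called with the block), led by Cd40, which receives help from T cells, with 4102, 5738 and 7011 on NCFM arrays and 388, 366 and 335 on control arrays (3.92 ± 0.18, adjusted p = 1.37e-07).

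Between 21.4% and 27.3% of measured members were called in either direction in several lists of uptake, presentation and adhesion, against 18.3% of all genes. These lists were MHC class II presentation, C-type lectin, Fc gamma and scavenger, and CD300 and TREM receptors, and integrins and adhesion molecules. Calls also depended on the level. Of the 4548 genes with the highest control level 332 were higher and 1021 lower, and of the 4549 with the lowest 135 and 34. The lists were not compared with genes of like level, so these shares do not set them apart. Of 16 alternative activation and uptake genes 6.25% were called, and of 30 lysosomal hydrolase and proton pump genes 10%. Of 16 genes of MHC class II presentation 1 rose and 3 fell, 2 of these calls held, and 2 members were called without NCFM replicate 3 or control replicate 2. The members that held were regulators of class II transcription, Rfx5 (0.62 ± 0.14) and Rfxap (-0.64 ± 0.08), and the class II chains H2-Aa, H2-Ab1 and H2-Eb1 changed by 0.05, 0.03 and 0.05 without being called. Of 22 C-type lectin receptors 2 rose and 4 fell (1 and 2 held). Clec4a2, an inhibitory receptor, had 1936, 2303 and 2478 on NCFM arrays and 3131, 5246 and 4986 on control arrays (-0.96 ± 0.18, adjusted p = 0.00267). Of 21 Fc gamma and scavenger receptors 2 rose and 3 fell, with 10 called under the block and 3 without NCFM replicate 2, control replicate 2 or control replicate 3. Fcgr1, the high-affinity receptor for IgG, rose by 1.06 ± 0.23 (adjusted p = 0.00717), and Fcgrt, the neonatal Fc receptor, fell by 0.86 ± 0.17 (adjusted p = 0.00445). Of 14 CD300 and TREM receptors 1 rose and 2 fell, only the fall of Cd300lb held, 5 were called with the block and 1 without control replicate 2 or 3. Of 26 integrins and adhesion molecules 3 rose and 3 fell (3 called without control replicate 2). Vcam1 had 592, 519 and 609 on NCFM arrays and 158, 170 and 184 on control arrays (1.75 ± 0.14, adjusted p = 8.06e-06), and Icam1, a ligand of the integrin LFA-1 on T cells, rose by 1.24 ± 0.11 (adjusted p = 1.37e-05). Other probe sets of Vcam1 changed by 0.29 to 0.76.

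**Figure D4:**
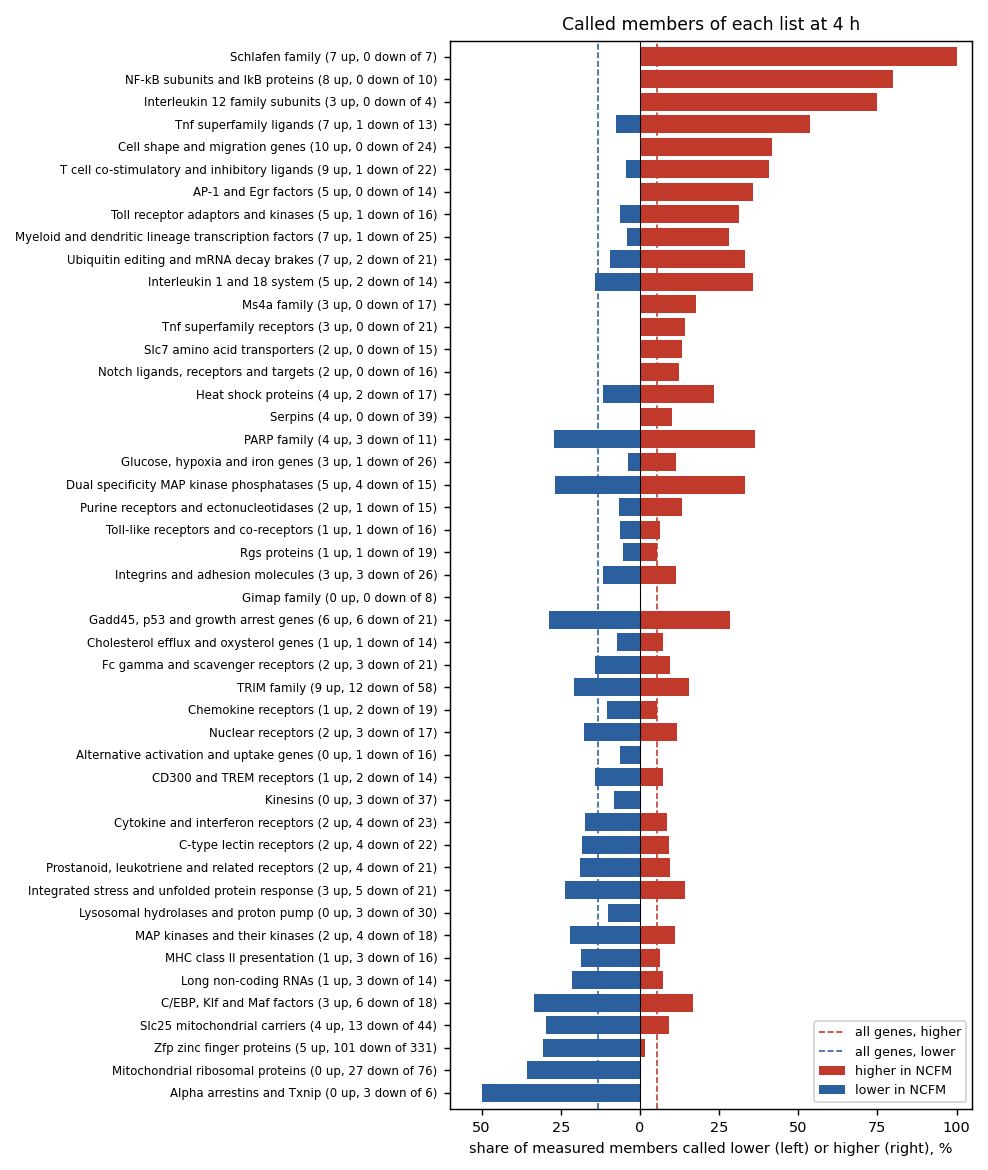
For each gene list, the bar to the right gives the percentage of measured members called higher in NCFM (red) and the bar to the left the percentage called lower (blue); dashed lines mark the same for all genes, 5.27% and 13.1%. Schlafen (7 of 7) and NF-kB genes (8 of 10) stand at the top, and mitochondrial ribosomal protein genes (27 of 76 lower) near the bottom.

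Families with antiviral members rose in part. All 7 Schlafen genes, whose family includes regulators of cell growth and viral protein synthesis, rose in calls that held, with a median of 2.25 and a range from 1.40 (Slfn2) to 3.58 (Slfn4). Slfn5 had 2305, 2286 and 3142 on NCFM arrays and 206, 302 and 196 on control arrays (3.47 ± 0.36, adjusted p = 5.88e-05). Other probe sets changed by 1.09 to 2.56 for Slfn5, 0.10 for Slfn1 and 0.30 for Slfn9. Slfn2, whose loss in mice impairs T cell quiescence, was bright in control cells, with 11390, 13114 and 16784 on NCFM arrays and 5422, 5106 and 4978 on control arrays. Of 58 TRIM genes 9 rose and 12 fell (8 and 7 held), so the family as a whole had a median of 0.02. Trim30d (2.53 ± 0.26), Trim30a (2.15 ± 0.23) and Trim21 (2.03 ± 0.18), an intracellular antibody receptor, rose most. Of 11 PARP genes 4 rose, Parp14 (2.92 ± 0.40), Parp12 (2.30 ± 0.20), Parp9 (1.92 ± 0.18) and Parp11 (1.38 ± 0.14), and 3 fell, among them Parp1 (-0.55 ± 0.12), the DNA damage enzyme. Of 17 Ms4a genes 3 rose, led by Ms4a4c (2.68 ± 0.30), and 6 were called with the block.

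Stress and growth-arrest genes changed in opposite directions. Of 21 genes of the Gadd45, p53 and growth-arrest list 6 rose and 6 fell (5 and 3 held), a share called of 57.1% against 18.3% over all genes. Cdkn1a, the p21 cell cycle inhibitor, had 13540, 12228 and 11863 on NCFM arrays and 5273, 3187 and 2829 on control arrays (1.79 ± 0.31, adjusted p = 0.00181), Plk2 rose by 2.40 ± 0.21 and Gadd45b, an inhibitor of cell death, by 1.47 ± 0.15. Sesn1, a sestrin that represses mTORC1, had 267, 229 and 257 on NCFM arrays and 572, 908 and 978 on control arrays (-1.67 ± 0.22, adjusted p = 0.000263), and Trp53inp1 fell by 1.42 ± 0.17. Other probe sets changed by 1.56 for Cdkn1a, 0.05 for Plk2, 0.35 to 1.41 for Gadd45b, -2.97 to -0.04 for Sesn1 and -0.10 for Trp53inp1. Of 21 genes of the integrated stress and unfolded protein responses 3 rose and 5 fell (2 and 3 held, and 5 were called without NCFM replicate 3 or control replicate 2). On their brightest probe sets, 2 kinases that start the stress response moved apart. Eif2ak2, the kinase PKR that senses double-stranded RNA, had 773, 1070 and 1466 on NCFM arrays and 241, 260 and 268 on control arrays (2.06 ± 0.20, adjusted p = 3.19e-05), and Eif2ak3, the kinase PERK of the endoplasmic reticulum, had 353, 293 and 360 on NCFM arrays and 882, 799 and 980 on control arrays (-1.40 ± 0.16, adjusted p = 0.000129). The 2 other probe sets of Eif2ak2 changed by 1.61 and 2.28, and those of Eif2ak3 by -0.04 and -0.02. Of 17 heat shock proteins 4 rose and 2 fell, with Hspa1b (1.67 ± 0.24) the most raised and Hsph1 lower (-0.62 ± 0.13).

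Genes of cell shape and migration rose where they changed. Of 24 members 10 rose and none fell (8 held), with a median of 0.61. Rasgef1b, an exchange factor for Ras-like proteins, had 1995, 2718 and 2830 on NCFM arrays and 259, 326 and 345 on control arrays (3.01 ± 0.23, adjusted p = 6.71e-06). Marcksl1, which binds actin and the membrane, had 10986, 13426 and 16424 on NCFM arrays and 4476, 4735 and 5617 on control arrays (1.45 ± 0.15, adjusted p = 6.23e-05), and Swap70, an actin regulator, rose by 0.92 ± 0.20 (adjusted p = 0.0065). Slc7a11, the cystine transporter, rose as well, with 1513, 3243 and 4556 on NCFM arrays and 551, 570 and 597 on control arrays (2.30 ± 0.32, adjusted p = 0.00039), and NCFM replicate 1 was the lowest of its group.

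Members of large families were among the many small falls. Calls lower in NCFM lay mostly among brighter genes, and no family was compared with genes of like level. Of 331 Zfp zinc finger genes 5 rose and 101 fell, 30.5% lower against 13.1% of all genes, with a family median of -0.17. The median was -0.13 after quantile normalization and turned to 0.06 after spike-in centring, where 36 members were higher and 30 lower. Zfp266 had 199, 170 and 177 on NCFM arrays and 401, 455 and 467 on control arrays (-1.28 ± 0.13, adjusted p = 3.95e-05), and Zfp53 147, 139 and 188 on NCFM arrays and 374, 383 and 379 on control arrays (-1.27 ± 0.15, adjusted p = 0.000149). Other probe sets changed by -0.32 to -0.19 for Zfp266 and by -0.58 for Zfp53. Of 76 mitochondrial ribosomal protein genes 27 fell and none rose, with a median of -0.56 (-0.47 after quantile normalization, -0.32 after spike-in centring, where 2 were higher and 4 lower). This count rested on single arrays: it was 14 without NCFM replicate 3, where the median was -0.33, 13 without control replicate 2, and 52 with the block. Mrps23, in a call that held, had 707, 655 and 656 on NCFM arrays and 1031, 1001 and 1006 on control arrays (-0.59 ± 0.07, adjusted p = 0.000202), and Mrpl34 had 670, 737 and 328 on NCFM arrays and 1402, 1166 and 1050 on control arrays (-1.14 ± 0.25, adjusted p = 0.00804), with NCFM replicate 3 again the lowest.

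Of 44 Slc25 mitochondrial carriers 4 rose and 13 fell. The count called was 8 without control replicate 3, 9 without control replicate 2 and 11 without NCFM replicate 1 or 2, and the list median turned from negative (-0.12) to 0.11 after spike-in centring. Slc25a22, the mitochondrial glutamate carrier, rose by 1.13 ± 0.09 (adjusted p = 6.12e-06), with 1973, 1916 and 1773 on NCFM arrays and 876, 835 and 878 on control arrays. Slc25a24, an ATP-Mg and phosphate carrier, fell by 0.81 ± 0.17 (adjusted p = 0.00656). The 6 arrestin-domain genes measured, with Txnip, had 3 falls, of Arrdc1, Arrdc2 and Arrdc3, of which those of Arrdc2 (-0.69 ± 0.12) and Arrdc3 held, and 5 were called with the block. Arrdc1 lost its call without NCFM replicate 2 or control replicate 2 or 3 (adjusted p up to 0.11). The list median was -0.51, with -0.27 after spike-in centring, where 2 were higher and 2 lower.

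The host transcript of microRNA 155, a regulator of immune cell activation, rose. Mir155hg had 817, 1653 and 2096 on NCFM arrays and 241, 208 and 184 on control arrays (2.75 ± 0.43, adjusted p = 0.000942), with NCFM replicate 1 the lowest of its group. The microRNA itself was not measured. Its mature guide strand is shown because its host was the 1 of 14 listed long non-coding RNAs that rose. RefSeq places it at chr16:84714143-84714165 (GRCm38.p6, plus strand), and capitals mark the seed, bases 2 to 8.
mmu-miR-155-5p: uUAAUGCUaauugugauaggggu
Of the same list 3 fell, Snhg1, Snhg5 and Snhg12, hosts of small nucleolar RNAs, and none of these calls held (adjusted p up to 0.053, 0.112 and 0.0563 in that order, without control replicate 3 for Snhg1 and Snhg12 and without NCFM replicate 3 for Snhg5). The count of the list was 2 without NCFM replicate 3 or control replicate 2 and 1 without control replicate 3.

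How far the early effect differs from the later ones was tested as the difference of effects. The comparisons at 10 and 18 h rest on 3 NCFM and 2 control arrays each and share the 4 h arrays in both differences. At 10 h 8.21% of genes were called higher and 16.5% lower, and at 18 h 7.4% and 16.3%. Of the 959 rises at 4 h, 438 were called higher at both later times, 264 at neither, and 15 were lower at 10 or 18 h. Of the 2376 falls 1229 were lower at both later times, 561 at neither, and 34 were higher at 10 or 18 h. The effect at 4 h differed from that at 10 h in 0.506% of genes (92), with 0.308% higher at 4 h and 0.198% lower, and from that at 18 h in 3.4% (619), with 2.22% of genes higher at 4 h and 1.19% lower. The first count was unstable, between 12 and 180 with single arrays left out: it was 12 or 163 when control replicate 1 or 2 of 10 h was dropped, 16 or 19 for control replicate 2 or 3 of 4 h, 24 or 29 for NCFM replicate 2 or 3 of 10 h, 180 for NCFM replicate 1 of 10 h, and 42 or 58 for NCFM replicate 2 or 3 of 4 h. The other count was 302 or 364 when control replicate 2 or 3 of 4 h was dropped and 312 for NCFM replicate 2 of 18 h. With the replicate block they were 457 and 1665. Of the genes that differed from 10 h 39.1% were lower at 4 h, which was 50.5% after quantile normalization, 56.2% after centring on control probe sets and 0.5% after spike-in centring. Of those that differed from 18 h 34.9% were lower at 4 h, against 45.8%, 7.4% and 6.8% in the same settings.

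Some cytokine and regulator genes had a larger effect at 4 h than at 18 h. Tnf changed by 4.62 ± 0.18 at 4 h, 2.90 ± 0.20 at 10 h and 1.61 ± 0.20 at 18 h (4 h minus 18 h 3.01 ± 0.27, adjusted p = 0.000515). Ifnb1 changed by 3.43 ± 0.23, 1.30 ± 0.25 and 0.77 ± 0.25 at the 3 times (4 h minus 18 h 2.66 ± 0.34, adjusted p = 0.00221). Edn1, which encodes endothelin 1, changed by 2.68 ± 0.17, 0.74 ± 0.19 and 0.29 ± 0.19 (4 h minus 18 h 2.39 ± 0.25, adjusted p = 0.000816). Cited2, a co-factor of the acetylase p300 that limits hypoxia-driven genes, had 4123, 5069 and 7204 on NCFM 4 h arrays and 1118, 1133 and 1225 on control 4 h arrays, and its change of 2.20 ± 0.21 at 4 h stood beside 0.37 ± 0.24 at 10 h and -0.30 ± 0.24 at 18 h (4 h minus 18 h 2.50 ± 0.32, adjusted p = 0.00221). Nfkbiz changed by 3.88, 2.08 and 1.13, and differed between 4 and 18 h (2.75 ± 0.47, adjusted p = 0.00887), while the adjusted p against 10 h was 0.136. Of the 20 genes named for each difference, 16 kept the call against 18 h with any single array left out and 3 kept it against 10 h: Mrc1, Ddit3 and Hsph1.

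Other genes changed less at 4 h than at a later time. Mrc1, the mannose receptor, changed by -0.61 ± 0.16 at 4 h, a call lost without NCFM replicate 1 or 2 or control replicate 2 or 3 (adjusted p up to 0.0951), by -2.62 ± 0.18 at 10 h and by -3.58 ± 0.18 at 18 h (4 h minus 10 h 2.01 ± 0.24, adjusted p = 0.00854, and 4 h minus 18 h 2.97 ± 0.24, adjusted p = 0.000379). Ccr2, the receptor for monocyte chemokines, had 2587, 1576 and 2504 on NCFM 4 h arrays and 4530, 6103 and 6902 on control 4 h arrays, a change of -1.41 ± 0.32, and its changes at 10 and 18 h were -3.03 ± 0.36 and -3.75 ± 0.36. For Ccr2 the adjusted p of the difference from 4 h was 0.0203 at 18 h and 0.186 at 10 h, and the call at 18 h was lost without NCFM 18 h replicate 2, control 18 h replicate 1 or control 4 h replicate 2 (adjusted p up to 0.0804). The heat shock gene Hspa1a changed by 1.36 ± 0.31 at 4 h, 4.61 ± 0.34 at 10 h and 3.69 ± 0.34 at 18 h, and its near-identical neighbour Hspa1b by 1.67 ± 0.24, 4.30 ± 0.27 and 3.72 ± 0.27. The change of Hspa1a at 4 h differed from that at 18 h (adjusted p = 0.0178), a call lost without control 18 h replicate 1 or control 4 h replicate 2 (adjusted p up to 0.0608). For Hspa1b the difference from 10 h was called (adjusted p = 0.0125), but not without control 10 h replicate 1 (adjusted p = 0.0833). Hamp, the iron hormone hepcidin, was not called at 4 h (0.35 ± 0.24) and changed by 2.99 ± 0.27 at 10 h and 3.51 ± 0.27 at 18 h (4 h minus 18 h -3.17 ± 0.37, adjusted p = 0.00148).

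A few stress genes changed sign. Ddit3, the factor CHOP of the unfolded protein response, had 410, 510 and 403 on NCFM 4 h arrays and 564, 673 and 599 on control 4 h arrays, a change of -0.48 ± 0.12, and changed by 1.29 ± 0.13 at 10 h and 2.05 ± 0.13 at 18 h (4 h minus 10 h -1.77 ± 0.18, adjusted p = 0.0036). Its fall at 4 h did not hold (adjusted p = 0.0703 without control replicate 2, and above the threshold also without NCFM replicate 1 or 3). Ddit4, an inhibitor of mTORC1, changed by -1.41 ± 0.37 at 4 h, a call lost without NCFM replicate 3, control replicate 1 or control replicate 2 (up to 0.0829), and by 1.77 ± 0.42 at 18 h. Hsph1, a heat shock protein, changed by -0.62 ± 0.13 at 4 h and by 0.81 ± 0.14 and 0.79 ± 0.14 at 10 and 18 h (4 h minus 10 h -1.43 ± 0.19, adjusted p = 0.0125), and the linker histone gene H1f2 by -1.16 ± 0.14, 0.21 ± 0.15 and 0.86 ± 0.15. After spike-in centring the effects differed over all genes by a median of 0.48 between 4 and 10 h and 0.24 between 4 and 18 h, and after centring on control probe sets by 0.30 between 4 and 18 h, so a smaller difference has no settled sign.

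**Figure D5:**
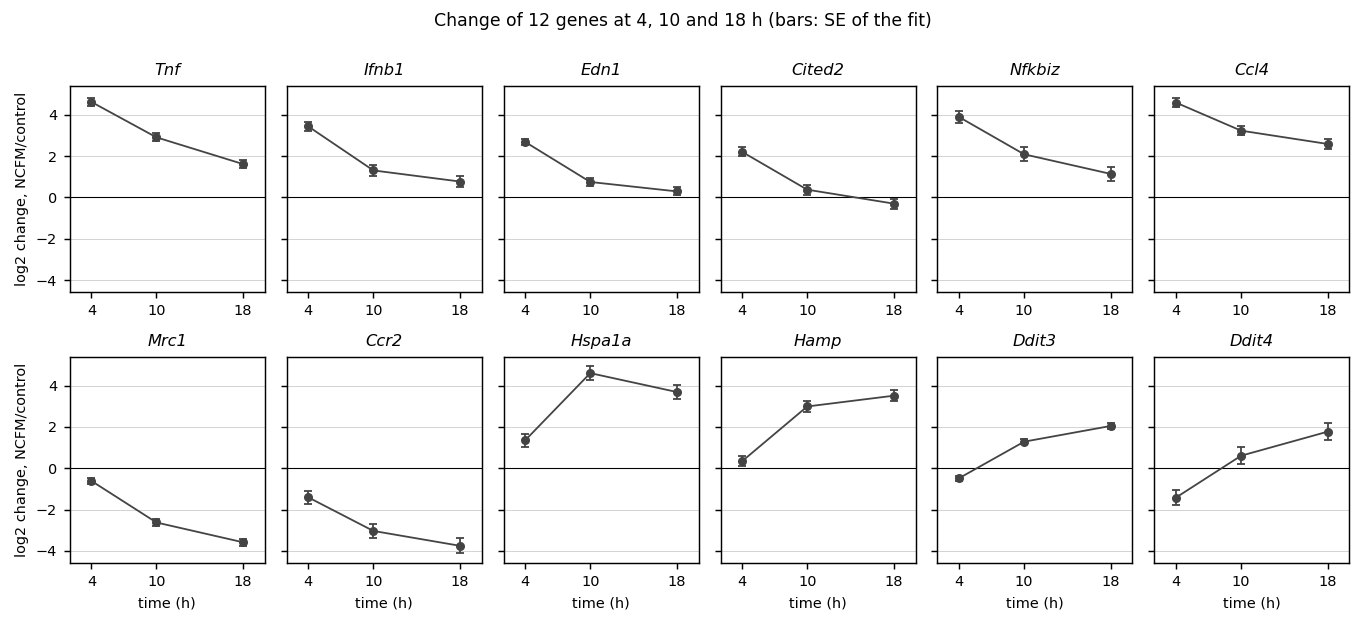
The log2 change of NCFM over control for 12 genes at 4, 10 and 18 h, with bars for the SE of the fit (3 NCFM arrays at each time, 3 control arrays at 4 h and 2 at 10 and 18 h). Tnf, Ifnb1, Edn1, Cited2, Nfkbiz and Ccl4 are highest at 4 h, Mrc1 and Ccr2 lowest at 18 h, and Ddit3 and Ddit4 lie below 0 at 4 h and above it at 18 h.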

How the data were processed

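RNA of 16 samples had been measured on arrays with 45101 probe sets. The deposited values are linear intensities that the authors had already summarised per probe set and normalised; which method they used was not given in the sources used here. Gene names came from the platform annotation: 34945 probe sets named a single gene, 932 several, 9160 were unnamed here and 64 were controls. Each of 18193 genes was represented by its brightest probe set, taken by the mean of all arrays. Of these genes 9010 had several probe sets, and a value given for a gene holds for the brightest alone. Other probe sets of some named genes changed much less, as for Dusp3 (-0.03 to 0.12), Il1rl2 (-0.04), Nr2c2 (-0.53 to 0.03) and Mrpl34 (-0.02). Those of other genes, such as Cd40 (3.83 to 4.07) and Socs3 (3.27 to 3.63), lay near the brightest. The number of arrays limits the precision.

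Log2 intensities were fitted with limma 3.58.1 (R 4.3.3; lmFit, eBayes) with a mean for each of 6 groups over all 16 arrays, which left 10 residual degrees of freedom. Contrasts were NCFM minus control at 4 h, and that effect minus the effect at 10 or 18 h, with Benjamini-Hochberg adjustment over all genes and a threshold of 0.05. Named were the 40 largest rises and 30 largest falls, 10 bright genes in each direction, 10 genes in each direction of each difference, members of 57 gene lists (1378 of 1445 symbols measured), and further genes of the neighbour runs. Members and lists were chosen with earlier results of these data known.

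Arrays of the same replicate number deviated together from their group means (r = 0.602, 0.427 and 0.434 between NCFM and control at 4 h, and 0.192 to 0.746 over all 36 same-number pairs), so the replicate number was also fitted as a block. Other alternatives were quantile normalization, centring on the median, on control probe sets or on spike-ins, background subtraction, a pseudocount of 16, other probe set rules, a dim-gene filter, array weights, a robust variance, only the groups compared, stricter thresholds, arrays numbered 2 and 3 only, and leaving out each array. Leaving out a control array at 10 or 18 h leaves 1 in its group, which is then assumed to vary like the other groups. On simulated data with 200 of 18193 genes changed by 1 on the log2 scale, the test recovered 86.1% at 4 h, 72.9% for the difference from 10 h and 72.8% for that from 18 h, with 4.86%, 6.18% and 4.84% false calls. The simulated arrays were drawn independently, without the shared deviations of same-number arrays. These shares therefore do not give the share of false calls in the measured data.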

Additional observations from a re-analysis of the deposited data

Results flagged for a closer look

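Genes named here were marked where the effect of NCFM at 4 h differed from the effect at a later time by limma's test of the difference itself (adjusted p under 0.05 over all genes). Values are the log2 effect at 4 h minus the log2 effect at the later time, so a positive value can be a larger rise or a smaller fall at 4 h. No sample of a gene was tested for standing apart, since the groups hold 3 arrays or fewer. Both differences use the same 4 h arrays. Their causes were not tested.

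Against 10 h, effects at 4 h were higher by 2.13 for Ifnb1, 2.01 for Mrc1, 1.93 for Edn1, 1.89 for Tfrc and 1.83 for Cited2. Smaller positive differences were 1.75 for Emilin2, 1.71 for Tnf, 1.68 for Cebpd, 1.58 for Prkd3 and 1.55 for Gcsh. Effects lower at 4 h than at 10 h gave -3.25 for Hspa1a, -2.65 for Hamp, -2.63 for Hspa1b, -2.59 for Cnn3 and -1.91 for Rnf225. Among the smaller negative differences were -1.81 for Plat, -1.77 for Ddit3, -1.43 for Hsph1, -1.39 for Batf and -1.37 for H1f2.

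Against 18 h, the positive differences were led by 3.17 for A630072M18Rik, 3.01 for Tnf, 2.97 for Mrc1, 2.86 for Cebpd, 2.75 for Nfkbiz, 2.66 for Ifnb1, 2.50 for Cited2 and 2.46 for Sfpq. Others followed with 2.39 for Edn1, 2.34 for Ccr2, 2.22 for Rasgef1b, 2.11 for Egr1, 2.00 for Ccl4, 1.94 for Ch25h, 1.71 for Clec4a2 and 1.64 for Prkd3. Further positive differences were 1.63 for Ccl3, 1.56 for Gm11772, 1.53 for Zc3h12c, 1.44 for Gcsh, 1.41 for Tfrc, 1.41 for P2ry13, 1.33 for Swap70 and 1.28 for Slfn9. The smallest were 1.19 for Nfkbid, 1.15 for Myd88, 1.12 for Slfn3, 0.94 for Vcam1, 0.92 for Tnfsf9, 0.85 for Mafk and 0.68 for Icam1. Effects lower at 4 h than at 18 h were -3.19 for Ddit4, -3.17 for Hamp, -2.77 for H2-Q5, -2.58 for Ankrd37, -2.53 for Ddit3, -2.52 for Gadd45g, -2.45 for Orm1 and -2.33 for Hspa1a. Next came -2.18 for Mettl7a1, -2.15 for Lcn2, -2.05 for Hspa1b, -2.03 for H1f2, -1.98 for Ms4a4c, -1.64 for Prorsd1, -1.63 for AI467606 and -1.51 for Rnf225. The remaining negative differences were -1.48 for Zfp53, -1.43 for Id3, -1.41 for Hsph1, -1.40 for Plat, -1.35 for Zfp36l2, -1.17 for Batf and -0.56 for Rfxap.

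Of the 20 genes named by rule for each difference, 3 kept the call against 10 h with every array left out in turn and 16 kept it against 18 h. Against 18 h the calls of Ccr2, Orm1, Hspa1a and Mettl7a1 were lost without at least 1 array, with adjusted p up to 0.0804, 0.0528, 0.0608 and 0.0523.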

How the results depend on the processing

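With no alternative did a named gene change direction while called. Of the 3335 genes called at 4 h, counts were 5671 with array weights, 5258 with every probe set tested, 1713 at an adjusted p under 0.01, 582 at 2-fold or more, and 2138 to 2953 with single arrays left out. The replicate block gave 4880. The 92 genes whose effect differed from 10 h became 419 with array weights, 309 with arrays numbered 2 and 3 only and 9746 after spike-in centring (both chosen after the data were seen), 16 after centring on control probe sets, 55 with a robust variance and intensity trend, 457 with the replicate block, 7 at an adjusted p under 0.01, 42 at 2-fold or more, and 12 to 180 with single arrays left out. The 619 genes that differed from 18 h became 1129 with array weights, 1593 with arrays numbered 2 and 3 only, 1665 with the replicate block, 160 at an adjusted p under 0.01, 265 at 2-fold or more, and 302 to 791 with single arrays left out. The causes were not tested, except that stricter thresholds and fewer arrays differ by construction. Over gene results, 4760 alternatives kept the side of the threshold, 204 lost the call and 11 gained it. Among the 4760, a gene called in neither setting may have changed sign. Over list counts 203 of the alternatives moved by more than 1.5 times and 937 did not. The split of higher and lower calls depended on scaling, so falls under about the spike-in shift of 0.23 have no settled direction. Genes near the lowest intensities have folds limited by background.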
